A study of Mus musculus with 9 samples.

Results

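Hepatokines are proteins that the liver releases into the blood and that act on metabolism in other tissues or in the liver itself. Here 9 hepatokine genes, Enho (which encodes adropin), Fgf21, Ahsg, Fetub, Lect2, Rbp4, Angptl4, Inhbe and Gdf15, were followed in liver of diabetic mice given insulin. The members were all probe sets that the platform annotation pairs with these genes, which gave 12 of the 45037 probe sets tested and 8 of the 9 genes. No probe set was paired with Gdf15 in the annotation used, and this gene was not analysed here. Enho had 4 probe sets, Angptl4 had 2 and the other 6 genes had 1 each.

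The animals were KKAy mice, an obese strain with insulin resistance that serves as a model of type 2 diabetes, and every group was of this strain and 8 weeks old. Liver RNA was hybridised to 9 one-colour Affymetrix arrays, 3 per group. The first group carries the treatment label none and is called untreated. The protocol text speaks of control mice injected with DMEM, a culture medium, and whether the untreated group had this injection is not stated. The second group received 100 µL of medium with insulin at 40 µg/mL in the peritoneum. The third group, BI, received the same volume and total insulin concentration, of which 11% was biomineralized, so that the greater part of its insulin was in the plain form. The diet held 34% fat per the labels of 8 arrays. The growth text of BI replicate 2 describes rats in place of mice, and the values of Enho, Fgf21, Inhbe, Lpl, Acot1, Nr1d2 and some of the gene lists without this array are given beside those with it. Neither the number of animals behind an array nor the length of treatment is in the labels, so that the spread on which the p-values rest may be technical.

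Values are log2 signals, on which a difference of 1 is a doubling. All 9 arrays had a median between 6.12 and 6.30, and pairs of arrays correlated at 0.909 to 0.921 with no clear gap between pairs of one group and pairs of different groups. Hepatocyte markers were bright on every array, with albumin (Alb) between 15.15 and 15.45 and a mean of 8 measured markers between 14.98 and 15.25. Differences are given ± SE from one limma fit of all arrays (n = 3 per group), and a probe set passed when its p, adjusted over all 45037 probe sets, was under 0.05. None of the 12 member probe sets passed in any of the 3 comparisons, against 0 probe sets of the whole array (0%) for insulin against untreated, 5 (0.0111%) for BI against untreated and 0 (0%) for BI against insulin. Before adjustment, limma's p was under 0.05 for 2014, 2016 and 1821 probe sets in the same order, and for 2 member probe sets in each comparison, all of them of Enho.

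Adropin is a secreted peptide of liver and brain that was named for its part in energy homeostasis, and liver Enho is known to respond to diet and to nuclear receptors of lipid and clock control. The brightest Enho probe set, 1428739_at, stood at 9.38, 9.76 and 9.31 on the untreated arrays. It stood at 8.76, 7.90 and 9.02 with insulin and at 7.90, 7.69 and 7.11 with BI. Every treated array thus lay below every untreated one, while the insulin and BI groups met at one point, where insulin replicate 2 lay just under BI replicate 1. The other bright Enho probe set, 1452893_s_at, read 9.04, 9.38 and 8.53 without treatment. It read 7.86, 7.50 and 8.82 with insulin and 6.53, 6.99 and 6.67 with BI. On this probe set the BI arrays lay below all 6 other arrays, and insulin replicate 3 lay among the untreated ones. Both probe sets carry the same source sequence in the annotation (BB772205), so they are repeated readings of one transcript end and not independent evidence.

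**Figure D1:**
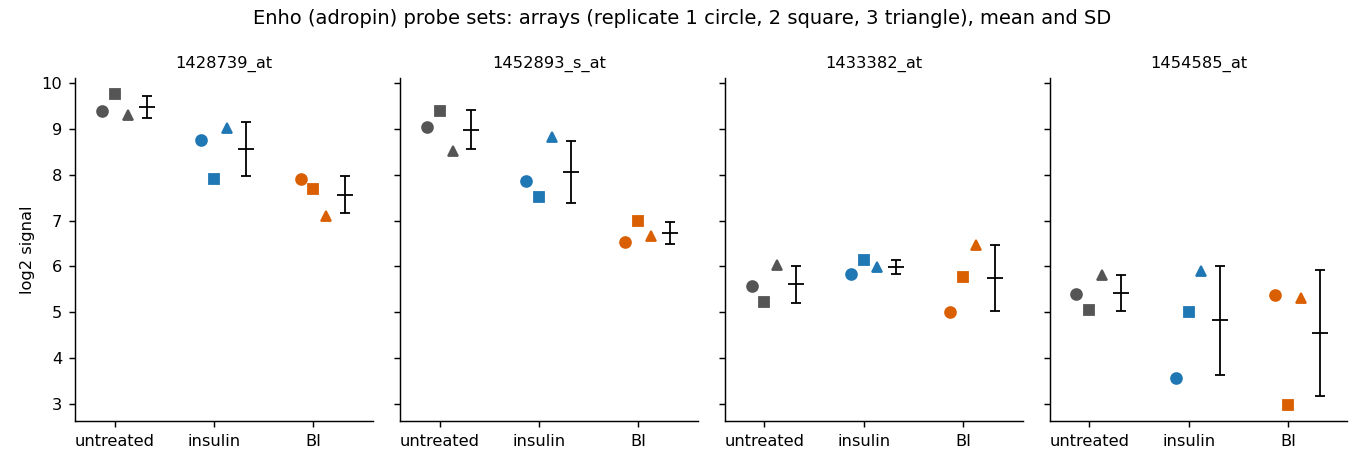
The log2 signal (vertical axis) of the 4 Enho probe sets is plotted for each array, grouped as untreated, insulin and BI, with circles for replicate 1, squares for replicate 2 and triangles for replicate 3, and with the group mean and SD beside them. The 2 bright probe sets step down from means of 9.48 and 8.98 without treatment to 7.57 and 6.73 with BI, and on the 2 dim ones the groups overlap.

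With BI, Enho was lower than without treatment by 1.92 ± 0.35 on 1428739_at (difference -1.92, 95% interval -2.73 to -1.11), which is 3.78-fold. On 1452893_s_at the difference was -2.25 ± 0.38 (95% interval -3.13 to -1.37), which is 4.75-fold. The p-values of limma were 0.000683 and 0.000442 before adjustment and 0.578 and 0.524 after it. By p, 1452893_s_at was number 38 and 1428739_at number 51 of the 45037 probe sets. Unadjusted p was under 0.05 and the probe set lower with BI for 2 of the 12 member probe sets, both of Enho, against 1.92% of all probe sets. When the variance was modelled with a trend over signal level and robust fitting, 1452893_s_at passed (limma adjusted p 0.0493) and 1428739_at did not (0.0525), with 6 of all probe sets passing (0.0133%). Without BI replicate 2 the differences were -1.98 and -2.38.

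With insulin alone, Enho was lower than without treatment by about the same amount on both bright probe sets, -0.92 ± 0.35 on 1428739_at (1.90-fold) and -0.92 ± 0.38 on 1452893_s_at (1.89-fold). Neither passed (limma adjusted p 0.9999 for both, 0.0300 and 0.0429 unadjusted). Lower signal with an unadjusted p under 0.05 was seen for 2 of the 12 member probe sets and for 1.85% of all. When insulin replicate 2 was left out the difference on 1428739_at was -0.59, and -1.15 when replicate 3 was, so the size rests on these arrays.

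Between the treated groups, Enho was lower with BI than with insulin, by 0.99 ± 0.35 on 1428739_at (difference -0.99, 95% interval -1.80 to -0.19) and 1.33 ± 0.38 on 1452893_s_at (difference -1.33, 95% interval -2.21 to -0.45). This too did not pass (limma adjusted p 0.9999 for both, 0.0221 and 0.00879 unadjusted). Without BI replicate 2 the differences were -1.05 and -1.46. On the first probe set 2 of the 3 BI arrays lay below every insulin array, and on the second all 3 did. Lower signal with an unadjusted p under 0.05 was seen for 2 of the 12 member probe sets and 1.94% of all, and groups that do not overlap for 1 member probe set and 9.6% of all. The order of the Enho means was therefore untreated, insulin, BI on both bright probe sets, with intervals of each step that leave out 0 before adjustment and no step that passes after it. The comparisons with the untreated group share its 3 arrays, and in whole liver fewer cells that make a transcript and less of it per cell cannot be told apart.

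The 2 remaining Enho probe sets carry the source sequence AK004381 and were near or below the array medians. The signal of 1433382_at lay between 5.02 and 6.47 and its means did not follow this order (5.61, 5.98 and 5.75). That of 1454585_at lay between 2.97 and 5.91, with means in the same order (5.42, 4.83 and 4.55), SDs of 0.38, 1.18 and 1.37 and groups that overlapped. With BI they differed from untreated by 0.14 ± 0.38 and -0.86 ± 0.79, and neither interval leaves out 0. Averaging the 4 probe sets brought the BI difference of the gene to -1.22 ± 0.28, and without a background measure it is not known whether the dim ones held signal of the transcript.

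Markers of 3 other cell types were mostly lower in the same direction between the treated groups, and the remaining lists were mixed. Of 7 measured lymphocyte markers 4 were higher with BI than with insulin (median 0.08, but -0.24 without BI replicate 2). Of 6 erythroid markers 4 were higher (median 0.21). Of 10 stellate cell markers 6 were lower (median -0.11), and of 8 adipocyte markers 5 (median -0.12). All 10 measured macrophage and Kupffer cell markers were lower with BI than with insulin (median -0.30, against -0.0083 for all probe sets), and so were all 10 endothelial markers (median -0.35), with none passing. Without BI replicate 2, 9 of the 10 macrophage markers (median -0.24) and all 10 endothelial ones (median -0.25) were lower. Their mean level per array was 9.69 to 10.22 with insulin and 9.03 to 9.90 with BI for macrophages, and 8.56 to 9.23 against 8.38 to 8.67 for endothelium. Without treatment these means were 9.47 to 10.11 and 8.18 to 9.03, and no marker of either list was at 0 on any array. Of 7 measured cholangiocyte markers 6 were lower with BI than with insulin (median -0.35, and -0.45 without BI replicate 2), with single markers from -0.70 to 0.40. Their mean per array was 5.28 to 5.68 without treatment, 5.35 to 5.60 with insulin and 4.76 to 5.33 with BI. These means lay below the array medians of 6.12 to 6.30, so this list was dim. With insulin against untreated, where Enho was at -0.92, 7 of the 10 macrophage markers were higher (median 0.26) and so were 9 of the 10 endothelial ones (median 0.32). Of the 7 cholangiocyte markers 5 were lower in that comparison (median -0.13). The part of these cells in the Enho result was not tested. Against untreated, the median with BI was -0.14 for the macrophage list, -0.056 for the endothelial one and -0.36 for the cholangiocyte one, while that of the hepatocyte list was 0.011. In the hepatocyte list 5 markers were higher with BI and 3 lower. The lowest, Tat, was at -0.51 ± 0.19 with BI (limma adjusted p 0.999) and at -0.30 ± 0.19 with insulin. The other hepatocyte markers stood close to or above the level of Alb, and whether signals this bright follow RNA in proportion was not tested.

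**Figure D2:**
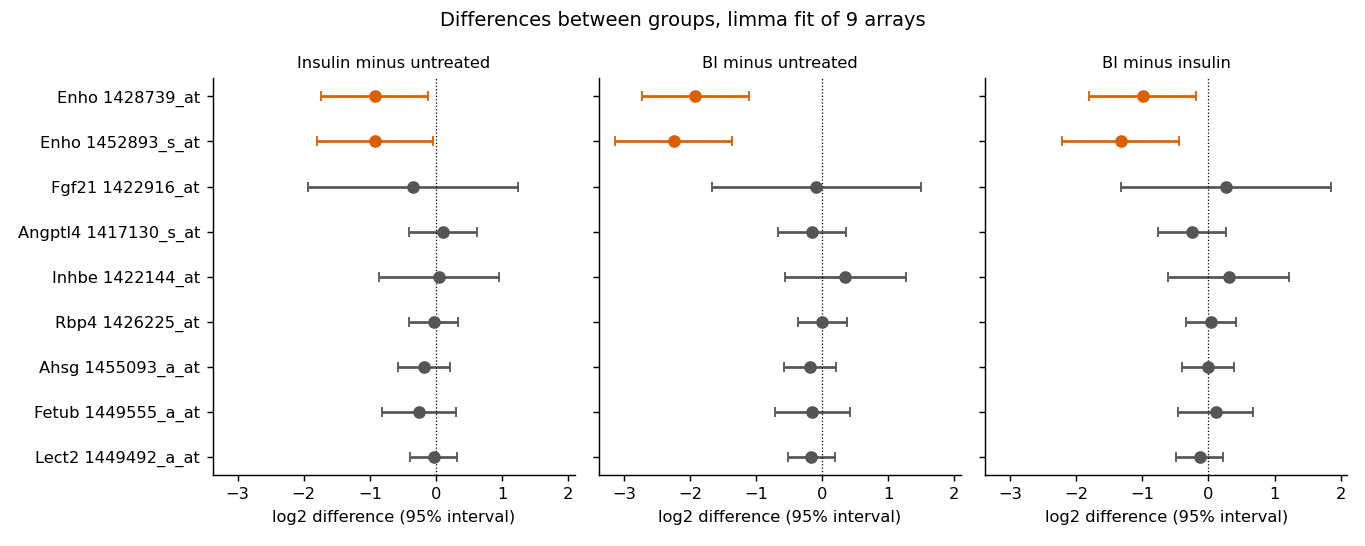
The log2 difference (horizontal axis) with its 95% interval from the limma fit is plotted for both bright Enho probe sets and the leading probe set of the 7 other measured hepatokine genes, in 3 comparisons. The Enho intervals lie below 0 in each panel, and the intervals of the other 7 genes span 0.

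The 5 genes most like Enho over the 9 arrays, among 7833 genes with a mean signal of at least 8, were Myh10, Tmem19, Moxd1, Nup210 and Qprt. Pearson's r with 1428739_at was 0.971 for Myh10, a nonmuscle myosin heavy chain, with means of 9.68 without treatment, 9.42 with insulin and 9.17 with BI. It was 0.947 for Tmem19, a membrane protein, 0.931 for Moxd1, a copper-dependent monooxygenase, 0.911 for Nup210, a nuclear pore protein, and 0.911 for Qprt, an enzyme of NAD synthesis. Moxd1 had means of 13.46, 12.99 and 12.38 in the same order of groups. These genes were picked as the highest of many correlations, and all share the 9 arrays and the scaling of each, so the values are a description.

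Fgf21 is a hormone released by the liver in fasting and under nutrient stress, and it acts through FGF receptors together with the co-receptor Klb. Inhbe encodes the activin E subunit, a liver-made member of the TGF-beta family. Both are known targets of ATF4, the transcription factor of the integrated stress response. The 250 bases before the start of each gene are shown because both hold the same match to an ATF4-type element, printed in capitals. The sequences are from RefSeq (GRCm38.p6), 5′ to 3′ on the strand of the gene, which is the minus strand for both. They cover chr7:45615491-45615740 for Fgf21 and chr10:127351849-127352098 for Inhbe.
Fgf21: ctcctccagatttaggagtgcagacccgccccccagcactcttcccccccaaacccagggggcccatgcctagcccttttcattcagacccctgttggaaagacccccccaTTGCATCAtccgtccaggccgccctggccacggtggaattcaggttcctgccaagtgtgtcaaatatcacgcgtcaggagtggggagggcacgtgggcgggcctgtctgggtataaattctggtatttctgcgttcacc
Inhbe: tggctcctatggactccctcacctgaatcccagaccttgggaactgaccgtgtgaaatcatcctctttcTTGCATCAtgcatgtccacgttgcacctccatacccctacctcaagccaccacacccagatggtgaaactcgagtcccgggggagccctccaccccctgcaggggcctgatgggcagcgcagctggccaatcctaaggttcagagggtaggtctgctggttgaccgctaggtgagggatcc
The motif searched was TGATGNAA on both strands, and the capitals TTGCATCA are its reverse complement, starting 139 bases before the Fgf21 start and 181 bases before the Inhbe start. In the table used, 7 of the 9 genes had a promoter, Gdf15 among them, while Enho and Angptl4 had none and were not searched. These 7 genes had 10 promoters. The motif was found for 3 of the genes, the other one being Rbp4, with TGATGAAA in one promoter and no match in its other one. It was found in 3.45% of all 32851 promoters over the same 250 bases. A direct repeat of AGGTCA with 1 base between the copies (DR1), the kind of site that PPARA binds, was searched as an exact match. It was in 11 of all 32851 promoters (0.0335%) and in no member promoter. An exact match this rare could hardly be met in so few promoters, so its absence says nothing about PPARA at these genes.

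Fgf21 signal varied widely within each group. It was 6.50, 6.27 and 7.77 on the untreated arrays, 6.95, 7.45 and 5.09 with insulin and 6.71, 6.25 and 7.32 with BI. The highest untreated array stood above all others and insulin replicate 3 below all others, so the 3 groups overlapped. Against untreated the difference was -0.35 ± 0.68 with insulin and -0.09 ± 0.68 with BI, and BI against insulin was 0.27 ± 0.68. The 95% interval for BI against untreated, -1.67 to 1.50, allows a difference of 2-fold and more in either direction. All 3 differences turned their sign when 1 array was left out, and without BI replicate 2 those with BI were 0.17 against untreated and 0.52 against insulin.

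Inhbe stood at 9.64, 10.24 and 10.53 without treatment, at 10.07, 10.63 and 9.85 with insulin and at 10.22, 10.05 and 11.20 with BI. BI replicate 3 was the highest of the 9 arrays and the groups overlapped. The differences were 0.05 ± 0.39 for insulin and 0.35 ± 0.39 for BI against untreated, and 0.31 ± 0.39 for BI against insulin. The last 2 were 0.57 and 0.53 without BI replicate 2. In each of the 3 groups the array with the highest Fgf21 was also the one with the highest Inhbe, namely untreated replicate 3, insulin replicate 2 and BI replicate 3. The same arrays also had the highest Rbp4 of their groups, so this is not particular to Fgf21 and Inhbe.

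Over the 9 arrays Fgf21 and Inhbe correlated at r = 0.67 (exact permutation p 0.0510) and rho = 0.73 (exact permutation p 0.0311). Among the 28 pairs of the 8 measured genes this did not pass (adjusted 0.580 for r and 0.290 for rho). Without untreated replicate 3 and insulin replicate 3, the arrays farthest from the median of Fgf21, r was 0.71, and with group means removed it was 0.71. It was 0.65 without BI replicate 2. The pair with the smallest p was Fgf21 with Angptl4 (r = 0.69, exact permutation p 0.0376, adjusted 0.580, and rho = 0.82, exact permutation p 0.0108, adjusted 0.290), for which r was 0.59 without the same 2 arrays. No pair passed the adjustment. The genes most like Fgf21 among 7834 were Prss23, a serine protease (r = 0.958), Pxdn, a peroxidase of the matrix (0.944), Itga8, an integrin subunit (0.929), Gna13, a G protein subunit (0.896), and Zfp617, a zinc finger protein (0.892), again as a description over the 9 arrays.

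**Figure D3:**
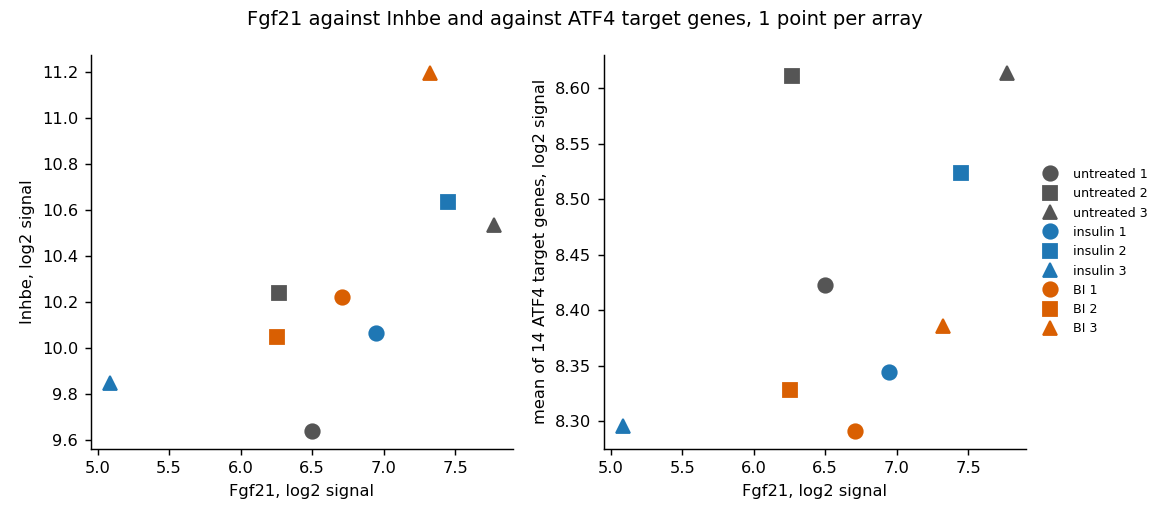
Each point is 1 array, with the Fgf21 log2 signal on the horizontal axis and, on the vertical axis, the Inhbe log2 signal (left) or the mean log2 signal of 14 ATF4 target genes (right), coloured by group with the replicate number as symbol. The highest Inhbe values lie at high Fgf21 (r = 0.67). On the right the means are 8.42 to 8.61 without treatment, 8.30 to 8.52 with insulin and 8.29 to 8.39 with BI. In each group the array with the highest Fgf21 also has the highest of these means. Among the untreated arrays the margin is small, 8.614 on replicate 3 against 8.611 on replicate 2, which has the lowest Fgf21 of that group. No correlation was computed for this panel.

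Angptl4 encodes a secreted inhibitor of lipoprotein lipase and is a PPARA target that rises in fasting. Its leading probe set, 1417130_s_at, ranged from 10.81 to 11.47 with a median of 11.08 over the 9 arrays. The lowest value was that of insulin replicate 3, and the BI arrays lay closest together (10.99 ± 0.09, SD, n = 3). Differences were 0.11 ± 0.22 for insulin and -0.15 ± 0.22 for BI against untreated, and -0.26 ± 0.22 for BI against insulin. The other probe set, 1453410_at, was dim and scattered (1.24 to 5.52), with BI replicate 1 far below the rest, and the interval of each of its differences spanned 0.

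Rbp4, the plasma carrier of retinol, varied least, from 14.91 to 15.22. Its differences were -0.03 ± 0.16 with insulin and 0.00 ± 0.16 with BI against untreated, with 95% intervals of -0.41 to 0.34 and -0.37 to 0.38. Ahsg encodes fetuin-A, a plasma glycoprotein that binds calcium phosphate and inhibits the insulin receptor. It ranged from 14.54 to 15.07, highest on untreated replicate 2, and differed from untreated by -0.18 ± 0.17 with insulin and -0.19 ± 0.17 with BI. Fetub encodes its relative fetuin-B, an inhibitor of zinc proteases. It ranged from 12.76 to 13.64, with untreated replicate 2 again highest, and its differences were -0.26 ± 0.24 and -0.15 ± 0.24. Lect2, a secreted protein that was found as an attractant of leukocytes and is linked to insulin resistance in muscle, ranged from 12.97 to 13.31. Its differences were -0.03 ± 0.15 with insulin and -0.17 ± 0.15 with BI, and 2 of the BI arrays (12.97 and 13.07) lay below all others. For these 4 genes the 95% intervals in the comparisons with untreated reached from -0.82 to 0.42 at their widest (both of Fetub), so a 2-fold difference in signal lay outside them. Rbp4 and Ahsg stood close to the level of Alb, and whether signals this bright still follow RNA in proportion was not tested.

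**Figure D4:**
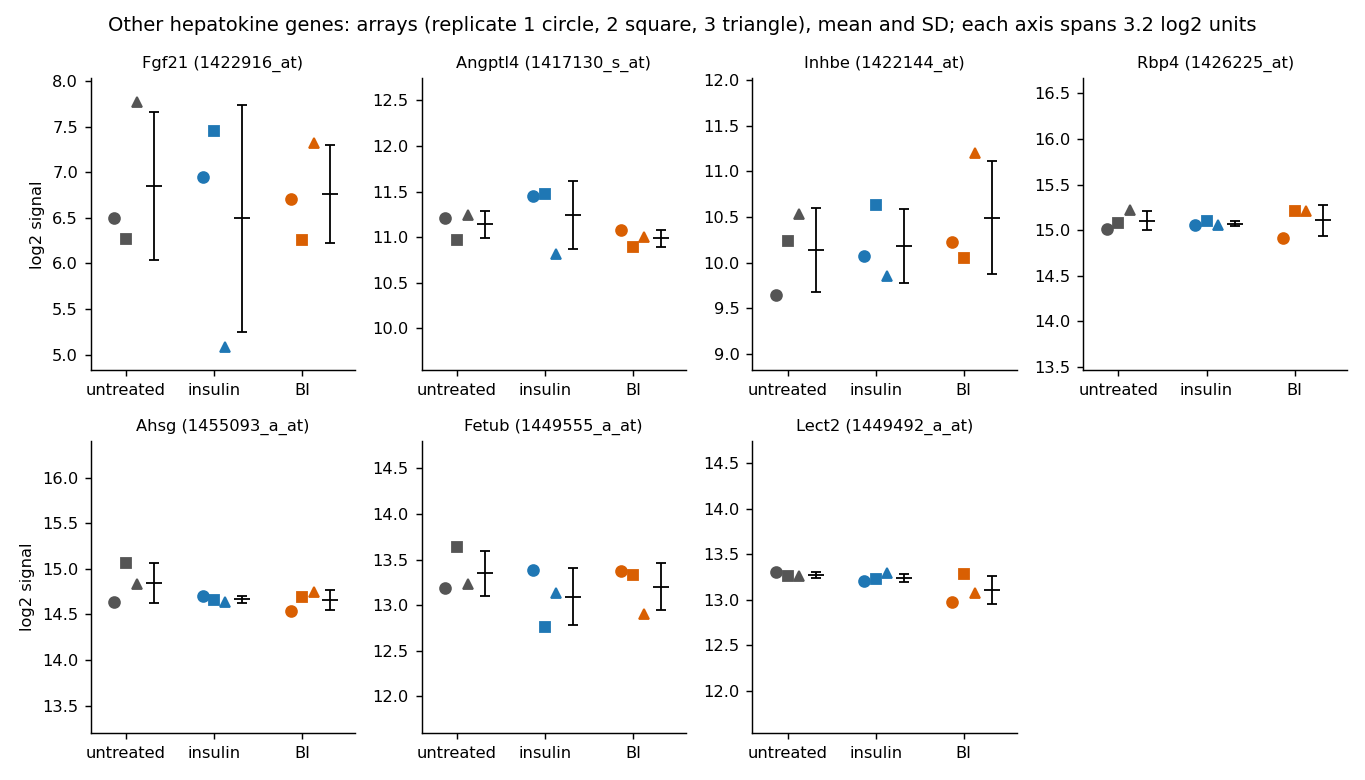
The log2 signal (vertical axis, 3.2 units in each panel) of the leading probe set of 7 hepatokine genes is plotted for each array by group, with the group mean and SD. Fgf21 spreads over 2.68 units and Rbp4 over 0.31, and the groups overlap in every panel.

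Over the leading probe sets of the 8 measured genes, 6 were lower with BI than without treatment (median -0.15, against 0.02 for all probe sets), 6 with insulin (median -0.11, against 0.02) and 4 in BI against insulin (median 0.01). Groups did not overlap for 2 of the 12 member probe sets with BI against untreated, both of Enho, where 9.21% of all probe sets did not, and for 1 with insulin (9.19% of all).

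The receptors and partners of these hormones were set beside them, with 24 of 26 genes measured and none passing in any comparison. With BI, 12 were higher and 12 lower than without treatment (median -0.0008). Lpl, the lipase that Angptl4 inhibits, was higher with BI by 1.39 ± 0.48 (10.63 to 12.01) with groups that did not overlap (limma adjusted p 0.999). Leaving out BI replicate 2 gave 1.29, and 0.64 against insulin. Lpl stood at 0.66 ± 0.48 with insulin, and at 0.22 without untreated replicate 2 and 0.93 without untreated replicate 3. In BI against insulin it was at 0.73 ± 0.48, and at 0.47 without BI replicate 3 and 1.08 without BI replicate 1. Lpl is also abundant in adipocytes, and the adipocyte hormone gene Adipoq, at a low level, went from 2.05 without treatment to 4.14 with insulin and 4.69 with BI. The mean of 8 adipocyte markers was 6.26 to 7.32 without treatment, 7.20 to 7.80 with insulin and 7.19 to 7.54 with BI. Against untreated, 6 of the 8 were higher with BI (median 0.14) and 7 with insulin (median 0.40). In BI against insulin, where Lpl was at 0.73, 5 were lower and 3 higher (median -0.12). The part of adipocytes in the Lpl value was not tested. Gpr19, an orphan receptor put forward as a receptor for adropin, was at 0.39 ± 0.21 with BI against untreated. The insulin receptor Insr, which fetuin-A inhibits, was at -0.21 ± 0.16 with insulin against untreated and at 0.23 ± 0.16 in BI against insulin.

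Of 20 upstream regulators 17 were measured, and none passed. With BI, 12 of the 17 were lower than without treatment (median -0.15), and with insulin 9 were lower (median -0.03). Ppargc1a, a coactivator of fasting metabolism, had the smallest p in both comparisons with untreated (-0.57 ± 0.20 in each, limma adjusted p 0.9999 with insulin and 0.999 with BI), and its groups did not overlap. Srebf1, the lipogenic transcription factor, was at 0.29 ± 0.16 with insulin and 0.33 ± 0.16 with BI. Rora, a nuclear receptor reported to act on Enho, was at -0.27 ± 0.20 with insulin and -0.38 ± 0.20 with BI. Among the other nuclear receptors measured, BI against untreated gave -0.59 ± 1.16 for Nr1d1, -0.27 ± 0.38 for Nr1d2 and -0.25 ± 0.17 for Nr1h3. It gave -0.15 ± 0.22 for Nr1h4, -0.15 ± 0.26 for Ppara, -0.02 ± 0.15 for Hnf4a and 0.04 ± 0.19 for Rxra. The part of any of them in the Enho values was not tested. Between the treated groups the smallest p were those of Nr1d2, a clock repressor (-0.50 ± 0.38), and Cebpb, a factor of the acute phase and gluconeogenesis (-0.31 ± 0.23). Nr1d2 was at -0.17 without BI replicate 2 and -0.79 without BI replicate 3, and Cebpb at -0.17 without insulin replicate 3 and -0.43 without insulin replicate 2.

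PPARA and ATF4 drive Fgf21 in different states, and genes known to follow each were read as 2 lists. Of 12 measured PPARA targets 9 were higher with BI than without treatment (median 0.30), 9 with insulin (median 0.13) and 11 in BI against insulin (median 0.17), and none passed. Without BI replicate 2 the medians with BI were 0.26 and 0.20. Acot1, an acyl-CoA thioesterase, was at 1.23 ± 0.36 with BI (limma adjusted p 0.942), 0.48 ± 0.36 with insulin and 0.75 ± 0.36 between the treated groups. Leaving out BI replicate 2 gave 1.03 for the first and 0.55 for the last. The second was 0.86 without insulin replicate 1 and 0.19 without replicate 3, and the third 0.37 and 1.04 without the same arrays. Vnn1, a pantetheinase, was at 1.08 ± 0.52 with BI against untreated and 0.92 ± 0.52 against insulin, and Cpt1a, which takes fatty acids into mitochondria, was at 0.36 ± 0.29 with insulin. Their list mean was 11.77 to 11.99 without treatment, 11.57 to 12.18 with insulin and 12.01 to 12.52 with BI, so the BI arrays lay above the untreated ones, by as little as 12.01 on BI replicate 2 against 11.99 on untreated replicate 1. This mean holds Cyp4a14, a fatty acid hydroxylase, which ran from 6.35 to 13.19 over the arrays (1.82 ± 2.05 with BI against untreated). It was at 7.24 on BI replicate 2 and at 12.47 on untreated replicate 1. Without Cyp4a14 the mean of the other 11 genes was 11.95 to 12.26 without treatment, 11.95 to 12.30 with insulin and 12.39 to 12.46 with BI. For Fgf21 and Angptl4 these groups overlapped, and the part of PPARA in their values was not tested.

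All 14 ATF4 targets were measured and none passed. With BI 9 were lower than without treatment (median -0.14), with insulin 9 (median -0.15), and 6 in BI against insulin (median 0.06). Asns, asparagine synthetase, was at -0.53 ± 0.17 with BI (limma adjusted p 0.999) and -0.38 ± 0.17 with insulin, and in both cases the treated arrays lay below the untreated ones. Ddit4, an inhibitor of mTORC1, was at -1.10 ± 0.53 with BI, and Vldlr, a lipoprotein receptor, at -0.38 ± 0.27 with insulin. Between the treated groups Atf3, a stress-induced factor, was at -0.51 ± 0.33 and Slc7a11, the cystine transporter, at -0.65 ± 0.55. Atf3, Slc7a11 and Vldlr had low signals, near or below the array medians, with group means of 5.74 to 6.38, 5.07 to 5.72 and 6.21 to 6.59. The mean of the 14 genes was 8.42 to 8.61 without treatment, 8.30 to 8.52 with insulin and 8.29 to 8.39 with BI.

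Of 24 other liver-secreted factors 21 were measured, and none passed. With BI 13 were higher and 8 lower (median 0.06), and with insulin 12 and 9 (median 0.007). Inhbb, the activin B subunit, was at 0.63 ± 0.29 with insulin and 0.54 ± 0.29 with BI against untreated. Gdf2, which encodes BMP9, was at 0.30 ± 0.24 with insulin, and Smoc1, a matrix protein that acts on glucose metabolism, at -0.22 ± 0.16 with BI. Between the treated groups Apoa4 (0.18 ± 0.17), an apolipoprotein, and Dpp4 (0.16 ± 0.16), the peptidase that degrades incretins, had the smallest p. Over the list the differences lay between -0.76 and 0.54 with BI, beside -1.92 for Enho, and between -0.52 and 0.69 with insulin, beside -0.92. Across these 5 lists, limma's p before adjustment was under 0.05 for Lpl, Ppargc1a, Acot1 and Asns with BI against untreated, for Ppargc1a with insulin, and for no gene in BI against insulin. That is 4, 1 and 0 of 87 genes (4.60%, 1.15% and 0%), beside 4.48%, 4.47% and 4.04% of all probe sets.

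**Figure D5:**
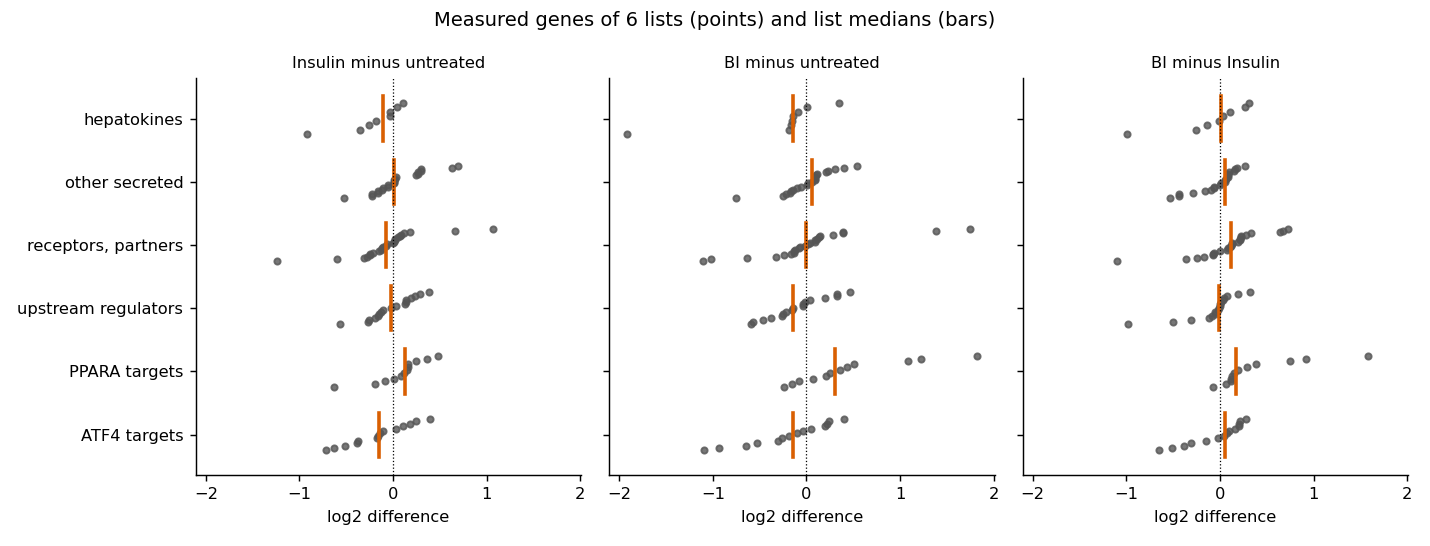
The log2 difference (horizontal axis) of each measured gene is plotted for 6 gene lists in 3 comparisons, with a bar at the list median. The medians lie between -0.15 and 0.30, and Enho is the point far left among the hepatokines.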

How the data were processed

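Liver RNA of 9 KKAy mouse samples was labelled with a 3′ IVT kit and read on Affymetrix arrays, per the labels' protocols. The authors deposited log2 signals per probe set. For the summarization and scaling steps, no software is named in the labels. The linear signals of every array had a mean of 500.004 after trimming 2% at each end, with 0 as the lowest log2 value, so the values were used as deposited, as already scaled. Of 45101 probe sets, 64 controls were left out. The platform annotation gave 1 symbol for 34945, several for 932 and none for 9160, and 34741 were matched by gene ID to RefSeq.

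Groups came from the sample titles. limma 3.58.1 (R 4.3.3; lmFit, eBayes, 6 residual degrees of freedom) fitted all arrays with group as the factor, with Benjamini-Hochberg adjustment over 45037 probe sets. The fit was tested on simulated data with independent noise and shifts larger than any difference of the members here. Its power for differences of the size found was not tested. A gene is led by its probe set of highest mean. Of the lists, members that passed, or else the 2 of smallest p, are named. Adipoq, Alb, Tat, Cyp4a14, Rora, the other nuclear receptors set beside it and the means of Moxd1 were picked with their values in view. The members and lists were chosen with earlier results of these data known. The number of arrays limits the precision. Alternatives were arrays brought to equal quantiles or to equal medians, a floor at 6, dim probe sets left out, a variance trend with robust fitting, a fit of each pair of groups alone, a replicate block, averaged probe sets per gene, and each array left out in turn. The filter together with the trend, lists and correlations without BI replicate 2 and the PPARA list without Cyp4a14 were added after seeing the data.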

Additional observations from a re-analysis of the deposited data

How the results depend on the processing

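The differences of the bright Enho probe sets kept their direction in every alternative. Leaving out 1 array gave -2.09 to -1.69 for 1428739_at and -2.48 to -2.05 for 1452893_s_at in BI against untreated (limma adjusted p 0.404 to 0.685 and 0.270 to 0.644). With a variance trend and robust fitting 1 member probe set was called in that comparison, 1452893_s_at (-2.25, adjusted p 0.0493). With dim probe sets also left out, its adjusted p was 0.0744, and 0 members were called. Of 57 named differences, 44 kept their direction in all alternatives run. Of 30 named differences of list genes, none of which passed, 17 moved by over 1.5 times when 1 array was left out, and 0 turned their sign.

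Over all probe sets, the 5 calls for BI against untreated became 1 when dim probe sets were left out, 1 with the trend as well, and 0 with a floor at 6, with only the groups compared, or with the replicate block. The replicate number did not pair the arrays, as deviations of same-numbered arrays correlated at -0.034 to 0.036, and the block changed no other call. Leaving out 1 array gave 0 to 2 calls for BI against untreated and 0 to 1 for BI against insulin, which had 1 call without dim probe sets. The cause was not tested.

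Small differences turned their sign. With quantile normalization Rbp4 stood at -0.034 (BI against untreated) and -0.030 (BI against insulin). With equal array medians Rbp4 stood at -0.026 (BI against untreated), Inhbe at -0.0086 (insulin against untreated) and Ahsg at 0.016 (BI against insulin). With a floor at 6, Fgf21 stood at -0.038 in BI against insulin. Leaving out 1 array gave these ranges. For insulin against untreated they were -0.83 to 0.35 for Fgf21, -0.0063 to 0.32 for Angptl4, -0.20 to 0.24 for Inhbe and -0.079 to 0.022 for Rbp4. For BI against untreated they were -0.37 to 0.38 for Fgf21, -0.23 to 0.0016 for Fetub, -0.0020 to 0.57 for Inhbe and -0.047 to 0.10 for Rbp4. For BI against insulin they were -0.44 to 0.75 for Fgf21, -0.051 to 0.052 for Ahsg, -0.055 to 0.26 for Fetub, -0.047 to 0.53 for Inhbe and -0.013 to 0.14 for Rbp4.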

Other observations

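The remaining marker lists of other cells in the liver gave no call in limma in any comparison. Of 10 stellate cell markers 7 were higher with BI than without treatment (median 0.11), and their mean per array was 8.93 to 9.42 without treatment, 9.23 to 9.33 with insulin and 9.03 to 9.35 with BI. Of 7 measured lymphocyte markers 5 were higher with insulin and 5 with BI (medians 0.47 and 0.26), at low means of 4.02 to 5.05 without treatment. Of 7 measured cholangiocyte markers, a dim list, 5 were lower with BI (median -0.36), and of 6 measured erythroid markers 4 were lower (median -0.34). Cd14, a receptor for bacterial lipopolysaccharide in the macrophage list, stood at 8.32, 12.03 and 8.81 without treatment, 7.87, 8.78 and 9.86 with insulin and 7.49, 7.48 and 7.25 with BI; untreated replicate 2 was far above the rest, and the gene was chosen after its values were seen.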
